A study of Mus musculus with 6 samples.

Results

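The nuclear factor I (NFI) family of mouse has 4 genes, Nfia, Nfib, Nfic and Nfix, and they were taken by gene symbol from the 55433 genes counted in each of 6 libraries. All 4 were among the 17711 genes that passed the filter on low counts. The RNA was of whole spinal cords taken at E13.5 from C57BL/6J mouse embryos, as labelled. The 3 embryos labelled control had the genotype NFIA-ff, in which the Nfia gene carries sites for cre recombinase, and the 3 labelled NFIAcKO had NFIA-ff together with the Nestin-cre transgene. Both groups therefore carried the NFIA-ff allele, and only the second carried cre. Nestin-cre drives cre from regulatory sequence of the nestin gene and is used to direct recombination to neural progenitors and their descendants, while the RNA is of all cells of the cord, its vessels, microglia and any meninges included. Effects of the transgene itself and of the loss of Nfia cannot be told apart. The labels name neither the exons that cre removes nor the litters, and p-values measure the spread between these 6 libraries. The study asks what Nfia does as spinal motor neurons develop.

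NFI proteins are transcription factors that bind DNA as dimers of any 2 family members, through a conserved domain near the amino end, and prefer the palindrome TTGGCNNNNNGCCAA. In the embryonic cord Nfia and Nfib come on in progenitors as neurogenesis gives way to gliogenesis, and they are needed for the start of the astrocyte lineage. Nfia, Nfib and Nfix also mark neurons that are born late. Nfic is best known from tooth root formation and is widely expressed.

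Because family members share their DNA-binding domain, their coding sequences were compared first, to show how far reads of the 4 genes can be told apart. The 90 coding bases that were most alike among the 4 lie in exon 2 of each gene's longest coding transcript, within the part that encodes the DNA-binding domain. They are shown 5′ to 3′ on the coding strand, with capitals at every position where the 4 genes are not all alike.
Nfia: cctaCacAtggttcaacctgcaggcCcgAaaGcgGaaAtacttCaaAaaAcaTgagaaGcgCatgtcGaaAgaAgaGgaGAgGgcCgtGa
Nfib: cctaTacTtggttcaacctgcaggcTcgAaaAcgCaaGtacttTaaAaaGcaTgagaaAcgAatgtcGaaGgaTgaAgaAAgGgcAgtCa
Nfic: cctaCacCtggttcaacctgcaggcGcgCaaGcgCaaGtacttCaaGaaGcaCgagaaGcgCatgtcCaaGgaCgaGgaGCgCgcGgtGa
Nfix: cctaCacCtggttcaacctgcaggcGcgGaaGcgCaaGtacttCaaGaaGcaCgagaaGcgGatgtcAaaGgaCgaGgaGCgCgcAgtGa
These lie in GENCODE annotation of GRCm38 at chr4:97783134-97783223 on the plus strand (Nfia), chr4:82498628-82498717 on the minus strand (Nfib), chr10:81420657-81420746 on the minus strand (Nfic) and chr8:84772174-84772263 on the minus strand (Nfix). All 4 genes had the same base at 68 of the 90 positions. Nfib, Nfic and Nfix differed from Nfia at 16, 14 and 15 positions, of which 16, 13 and 14 were the last position of a codon. Over the aligned coding sequence, identity between members ran from 63.2% (Nfib and Nfic) to 70.6% (Nfia and Nfix). The longest run of bases shared by any pair of transcripts was 32, between Nfic and Nfix, and 25 between Nfia and Nfib. No stretch of 50 bases in any annotated transcript of an NFI gene occurred in a transcript of another, so a read that matches over 50 or more bases belongs to 1 member.

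The 4 genes are long, and 3 of them overlap other annotated genes on the opposite strand within exons. Nfia (ENSMUSG00000028565.18) spans chr4:97772734-98118874 with 10891 bp of exon, and Nfib (ENSMUSG00000008575.17) spans chr4:82290173-82705750 with 14957 bp. Nfic (ENSMUSG00000055053.18) spans chr10:81396186-81455635 with 6630 bp of exon, and Nfix (ENSMUSG00000001911.16) spans chr8:84699876-84800344 with 7351 bp. E130114P18Rik shares 4 exonic bases with Nfia, and had 591, 1036 and 642 counts in the libraries labelled control and 561, 632 and 701 in those labelled NFIAcKO. Gm16104 shares 72 exonic bases with Nfic and had 11 to 23 counts per library. Lyl1 and G430095P16Rik share 4 and 137 exonic bases with Nfix and had 111 to 191 and 2 to 12 counts. Gm11266, which lies opposite an intron of Nfib, had 141 to 292 counts, and the other overlapping genes (n-R5s188, Gm11267, Gm11268, Gm11269 and Mir1191b) had at most 2. No source used here gives the strand setting of the counting. Reads from exons shared with these genes are therefore uncertain, and the overlapping genes carried far fewer counts than the NFI genes.

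Counts assigned to genes ran from 43393053 to 51465763 per library, and every pair of libraries of a group differed by more than sampling noise (chi-square per degree of freedom 11.9 to 50.2). Transcript length moved with the labels. Per doubling of exon length, the log2 level relative to the mean of the libraries changed by -0.117 to -0.0188 in the libraries labelled control and by 0.0395 to 0.0932 in those labelled NFIAcKO. Values are therefore given as counted and with the trend with length and GC content removed from each library. Markers of the cord were present. Summed over 6 neuron markers the level was 6994 to 7396 CPM (counts scaled to the size of the library, here its total) in the libraries labelled control and 7938 to 8282 in those labelled NFIAcKO, and over 7 progenitor markers 2788 to 2994 and 2521 to 2682. Neither range overlapped between the labels, and of single tested genes 17.3% lay wholly higher and 16.1% wholly lower. Marker sums and calls are as counted unless stated, where 7.86% of all tested genes rose and 6.08% fell. Of the neuron markers Elavl3 and Dcx rose and none fell. Of the progenitor markers Nes rose, Hes5, Fabp7 and Slc1a3 fell, and the rest were not called. With the trend removed Slc1a3 still passed (edgeR adjusted p = 0.024), and Hes5 and Fabp7 did not (0.17 and 0.072). The 6 motor neuron markers summed to 126 to 156 and 146 to 161 CPM, and none was called. Among cells outside the neural lineage, the summed level of 5 endothelial markers was 250 to 297 and 309 to 329 CPM (3 rose and 1 fell), and that of 5 microglial markers 55.6 to 63.7 and 45.1 to 51.6 CPM (1 fell). The 6 markers of meninges and mesenchyme summed to 1292 to 1663 and 1403 to 1999 CPM, with none called. The part of these cells in the NFI values was not tested. In whole cords, fewer cells of a type and less RNA per cell cannot be told apart.

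Of the 4 NFI genes, 2 (Nfia and Nfic) rose in the libraries labelled NFIAcKO and none fell, against 7.86% of all tested genes that rose and 6.08% that fell. To rise or fall here means an edgeR quasi-likelihood adjusted p under 0.05. The same 2 genes rose in DESeq2, against 10.4% of tested genes that rose and 8.28% that fell, and in the edgeR fit blocked on replicate number, against 7.64% and 6.32%. The median log2 fold change of the 4 was 0.22, and that of all tested genes -0.01. On removal of the trend with length and GC, 1 of 4 (Nfia) rose and none fell, against 3.83% and 3.88% of tested genes, and the medians were 0.02 and 0.01. The plot of levels by library shows all 24 values on each scale.

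**Figure D1:**
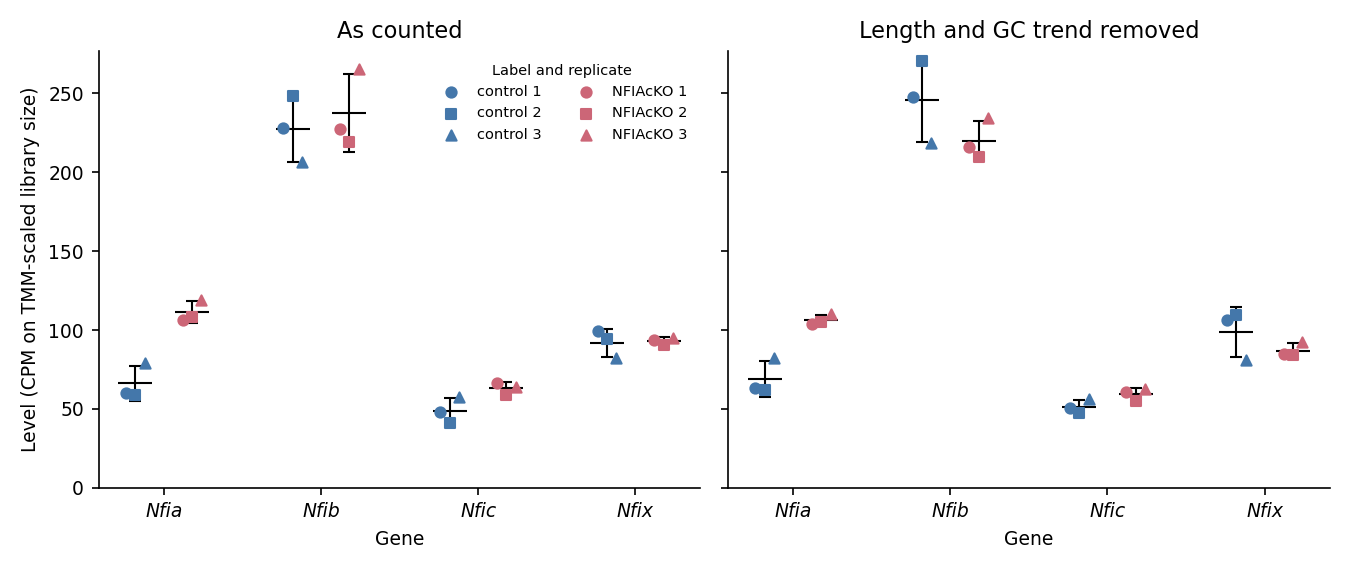
Levels of Nfia, Nfib, Nfic and Nfix in each library (vertical axis, CPM on TMM-scaled library sizes), as counted (left) and with the length and GC trend removed (right); points are libraries, coloured by label with a shape per replicate, and bars are mean ± SD of 3 libraries. Nfia lies higher in all 3 libraries labelled NFIAcKO on both scales, and control replicate 3 is the highest control for Nfia and Nfic and the lowest for Nfib and Nfix.

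Nfia, the gene that cre was meant to disrupt, had 2641, 3110 and 3683 counts in the 3 libraries labelled control and 5144, 5016 and 5636 in the 3 labelled NFIAcKO, each in the order of their replicate numbers. On TMM-scaled library sizes these were 60.1, 59.1 and 79.2 CPM in the libraries labelled control and 106, 108 and 119 CPM in those labelled NFIAcKO. Every library labelled NFIAcKO lay above every library labelled control, as was so for 17.3% of tested genes (16.1% lay wholly below). This direction goes against the label. A count per gene sums all exons, any that remain after recombination included, so it does not measure the deletion, and the libraries are called by their labels throughout. The rise was 0.75 on the log2 scale (SE 0.11, 95% interval 0.52 to 0.98), with an edgeR adjusted p of 0.0031. On the scale with the trend removed Nfia stood at 63.2, 62.0 and 82.4 CPM and 104, 105 and 110 CPM, again without overlap (as for 15.1% of tested genes, with 14.6% wholly below). The rise was then 0.62 (95% interval 0.41 to 0.83, edgeR adjusted p = 0.011). That call was lost when control replicate 1 or any of the 3 libraries labelled NFIAcKO was also left out (edgeR adjusted p 0.056 to 0.063), with 0.56 to 0.64 as the difference. By fold change Nfia was number 200 from the top of 17711 genes, and by p number 27. Among the 2184 tested genes in the longest eighth by exon length, where 32.9% rose and the median log2 fold change was 0.21, 22 had a higher fold change than Nfia.

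Nfib, the most abundant member and the partner of Nfia at the onset of gliogenesis, stood at 228, 249 and 206 CPM in the libraries labelled control and 228, 219 and 266 CPM in those labelled NFIAcKO. The ranges overlap, and the highest and the lowest of the 6 values are both from replicate 3. The difference was 0.06 on the log2 scale (95% interval -0.14 to 0.26, edgeR adjusted p = 0.71), and the interval covers 0.908-fold to 1.20-fold. The sign turned with the trend removed (-0.16, 95% interval -0.33 to 0.01, edgeR adjusted p = 0.23), with 248, 271 and 218 CPM against 216, 210 and 234 CPM.

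Nfic, the least abundant member by count, stood at 47.8, 41.3 and 57.4 CPM in the libraries labelled control and at 66.7, 58.8 and 63.8 CPM in those labelled NFIAcKO. The groups did not overlap, as was so for 17.3% of tested genes that lay wholly higher, but control replicate 3 and NFIAcKO replicate 2 were close. By levels per exon length, given below, these libraries changed places and the groups overlapped. The rise was 0.37 on the log2 scale (SE 0.11, 95% interval 0.14 to 0.60, edgeR adjusted p = 0.034). Without the trend it was 0.21 (95% interval 0.04 to 0.37) and no longer passed (edgeR adjusted p = 0.12), and the groups overlapped (50.8, 47.4 and 56.3 against 60.8, 54.9 and 62.5 CPM). In its length class of 2183 genes 14.4% rose, and 230 genes had a higher fold change. The call was lost whenever a library other than control replicate 3 was left out (edgeR adjusted p 0.064 to 0.14).

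Nfix, which is known for its part in neural stem cells and in muscle, stood at 99.4, 94.2 and 82.1 CPM in the libraries labelled control and 93.7, 90.2 and 95.2 CPM in those labelled NFIAcKO. Both the highest and the lowest library were labelled control. The difference was 0.02 on the log2 scale (95% interval -0.16 to 0.20, edgeR adjusted p = 0.92), and it was below 0 with upper quartile scaling, on library totals and with the trend removed (-0.021, -0.036 and -0.19).

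Control replicate 3 was the library labelled control whose NFI values lay nearest to those labelled NFIAcKO for Nfia and Nfic. Without it the rise of Nfia was 0.90 (edgeR adjusted p = 6.8e-07) and that of Nfic 0.50 (edgeR adjusted p = 0.00018), and 14.8% of all tested genes rose. When it was left out and the trend was removed as well, all 4 members were called. Nfia (0.76) and Nfic (0.28) rose and Nfib (-0.24) and Nfix (-0.31) fell, at edgeR adjusted p values of 4.0e-06, 0.011, 0.02 and 0.0039, when 10.3% of all tested genes rose and 10.2% fell. That pattern of 2 rises and 2 falls was not called with all 6 libraries. The plot of fold changes gives each member with every library left out in turn.

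**Figure D2:**
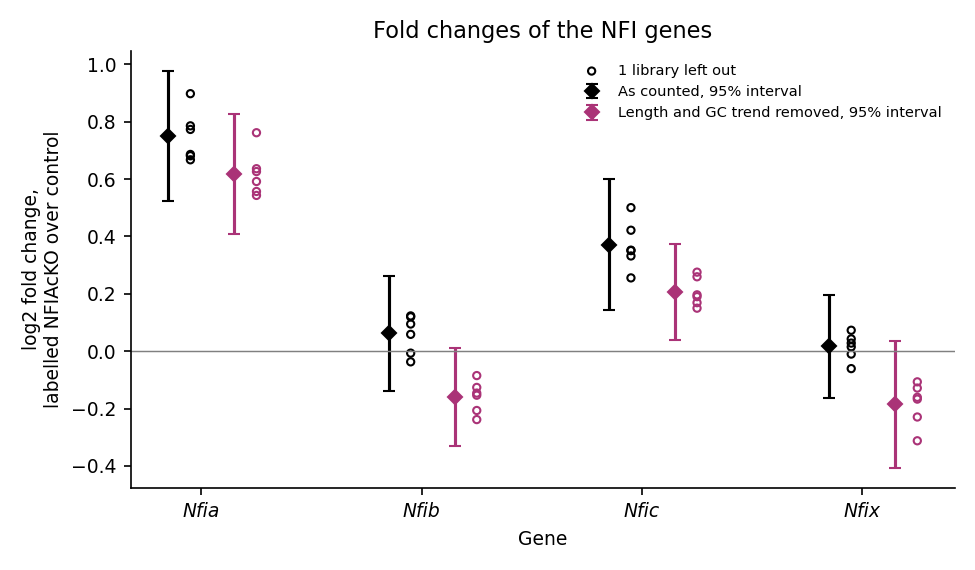
Log2 fold change of each NFI gene, libraries labelled NFIAcKO over those labelled control, as counted (black) and with the length and GC trend removed (purple); diamonds and bars are the estimate over 6 libraries with its 95% interval, and open circles are fits with 1 library left out. Nfia stays between 0.54 and 0.90 in all 12 such fits, while Nfib and Nfix lie on both sides of 0 as counted and below 0 with the trend removed.

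Exon length set against fold change shows where the members stand among all tested genes. From the shortest to the longest eighth of genes the median log2 fold change ran from -0.23 to 0.21 as counted and from 0.05 to 0.01 with the trend removed. Nfia and Nfic lay above the upper quartile of genes of their length on both scales, and Nfib and Nfix lay below the median of theirs on both scales.

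**Figure D3:**
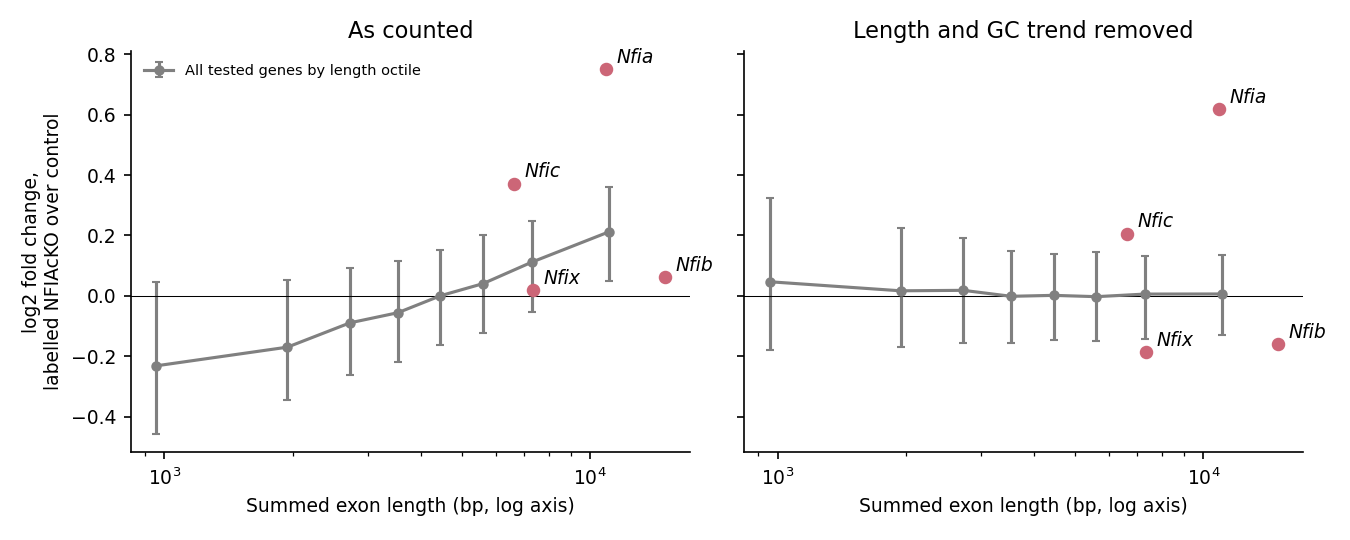
Log2 fold change (vertical axis, libraries labelled NFIAcKO over control) against summed exon length in bp (log axis), as counted (left) and with the length and GC trend removed (right); grey points and bars are the median and the quartiles of all tested genes in 8 length classes, and red points are the 4 NFI genes. The grey medians run from -0.23 to 0.21 on the left and are nearly level on the right, with Nfia far above them on both sides.

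Because all 4 counts come from the same library, their shares of the summed NFI counts do not depend on how libraries are scaled. Nfia held 13.8, 13.3 and 18.6% of NFI counts in the libraries labelled control and 21.5, 22.7 and 21.9% in those labelled NFIAcKO. The share was higher in all 3 libraries labelled NFIAcKO, with a difference of means of 6.79 percentage points. The exact two-sided permutation test gave p = 0.1, which is the smallest that 3 against 3 libraries can give, and 0.2 after adjustment over the 4 shares. Nfix held 22.8, 21.3 and 19.3% and then 19.0, 18.9 and 17.5%, lower in all 3 libraries labelled NFIAcKO (difference -2.68 points, exact permutation p = 0.1, adjusted 0.2). Without the trend the Nfix shares overlapped (exact permutation p = 0.3). The shares of a library are tied, as a gain in the Nfia share must lower the others together. In CPM Nfix itself differed little (mean 91.9 labelled control and 93.0 labelled NFIAcKO). Nfib held 52.4, 56.1 and 48.5% and then 46.0, 46.0 and 48.8% (exact permutation p = 0.2), and Nfic 11.3 ± 2.11% and then 12.5 ± 0.900% (SD, n = 3, exact permutation p = 0.5). Both sets of shares overlapped between the labels as counted, and those of Nfib did not without the trend (exact permutation p = 0.1, adjusted 0.2).

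**Figure D4:**
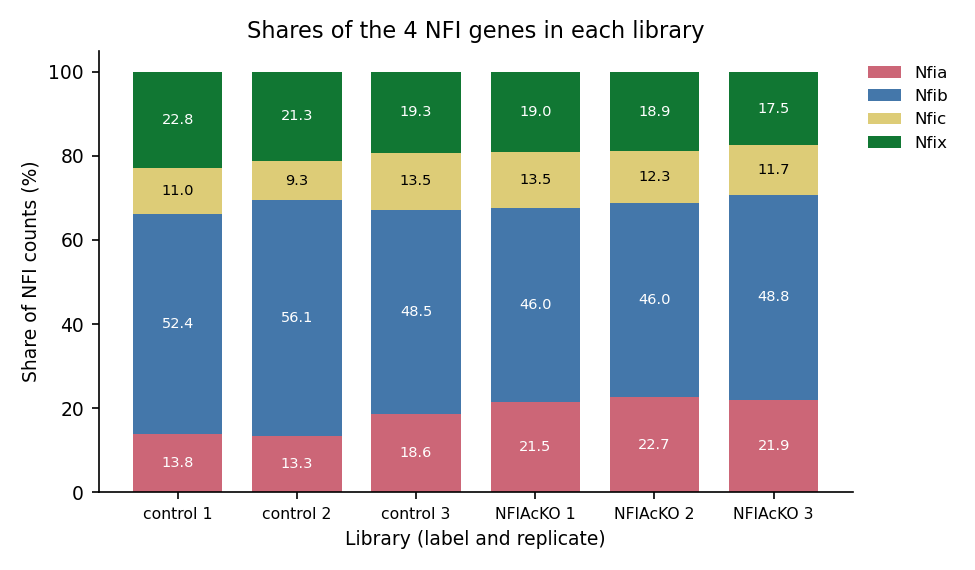
Share of the summed counts of the 4 NFI genes held by each gene (vertical axis, percent, stacked to 100) in each of the 6 libraries (horizontal axis, label and replicate). The Nfia share is 13.3 to 18.6% in the libraries labelled control and 21.5 to 22.7% in those labelled NFIAcKO, and control replicate 3 has the highest Nfia share of its label.

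Ratios between pairs of members show the same libraries in more detail. The ratio of Nfia to Nfix counts was 0.605, 0.627 and 0.966 in the libraries labelled control and 1.13, 1.20 and 1.25 in those labelled NFIAcKO, so Nfia had fewer counts than Nfix in each library labelled control and more in each labelled NFIAcKO. The ratio of Nfia to Nfib was 0.264, 0.238 and 0.384 and then 0.467, 0.494 and 0.449. The ratio of Nfia to Nfic was 1.26, 1.43 and 1.38 and then 1.59, 1.84 and 1.87. All 3 ratios with Nfia were higher without overlap, by 0.74, 0.70 and 0.38 on the log2 scale (exact permutation p = 0.1 each, adjusted over 6 ratios 0.2), and they were so with the trend removed as well (0.80, 0.79 and 0.42). The ratio of Nfib to Nfix differed least between the labels, at 2.29 to 2.64 and 2.43 to 2.79 (log2 difference 0.04, exact permutation p = 0.7). The ratios of Nfib and of Nfix to Nfic overlapped between the labels as counted.

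Summed over the 4 genes, NFI reached 435, 443 and 425 CPM in the libraries labelled control and 494, 477 and 544 CPM in those labelled NFIAcKO. On the scale without the trend the sums were 468, 489 and 438 and then 465, 453 and 499 CPM, which overlap.

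Levels of different genes can be compared only per length, here as TPM, in which counts are divided by the summed exon length and scaled to the same sum in each library. In the libraries labelled control the order was Nfib (56.9 ± 3.38 TPM, SD, n = 3), Nfix (46.8 ± 3.54), Nfic (27.7 ± 5.55) and Nfia (22.8 ± 4.71). In the libraries labelled NFIAcKO it was Nfib (61.3 ± 7.84), Nfix (48.8 ± 2.72), Nfia (39.4 ± 3.27) and Nfic (36.7 ± 3.21). Nfib lay above Nfix in each of the 6 libraries. In TPM the Nfic values overlapped between the labels, with control replicate 3 at 33.6 and NFIAcKO replicate 2 at 33.1. Nfic lay above Nfia in each of the 3 libraries labelled control, and Nfia above Nfic in replicates 2 and 3 labelled NFIAcKO but not in replicate 1 (38.0 TPM for Nfia and 39.2 for Nfic). By the length of the longest transcript Nfia was above Nfic in replicate 1 too (33.5 and 32.1 TPM). The means of these neighbours differed by about the SD of either. Averaged over the 6 libraries, Nfib lay above 80.3% of tested genes in TPM, Nfix above 75.8%, Nfic above 66.9% and Nfia above 66.1%.

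Across the 6 libraries Nfia and Nfic varied together, with a Pearson r of 0.92 on log2 CPM (exact permutation p = 0.017, adjusted over 6 pairs 0.1) and a Spearman rho of 0.83 (p = 0.058 by exact permutation, adjusted 0.18). Without the 2 libraries farthest from the median of Nfia, control replicates 1 and 2, r was 0.65, so the relation rests in part on those libraries. The pooled r holds the difference between the labels. The correlation of deviations from each label's mean was 0.80, and within a label 3 libraries are too few to test it. Nfib and Nfix had a Pearson r of 0.64 (exact permutation p = 0.14, adjusted 0.41; rho 0.83, exact permutation p = 0.058, adjusted 0.18) and 0.25 without the 2 libraries farthest from the median of Nfib. Without the trend their r was 0.95 (exact permutation p = 0.014, adjusted 0.083). The other 4 pairs had r between -0.26 and 0.13 as counted, and between -0.76 and 0.96 without the 2 libraries farthest from the median. Without the trend these 4 had r of -0.78 (Nfia and Nfib), -0.77 (Nfia and Nfix), -0.69 (Nfib and Nfic) and -0.71 (Nfic and Nfix), each with an adjusted exact permutation p of 0.15. No pair passed after adjustment on either scale.

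By likeness of pattern, as Pearson r of log2 CPM over the 6 libraries among 10085 genes with a mean of at least 10 CPM, the genes nearest to Nfia were Dicer1, the enzyme that makes microRNAs from their precursors, Slc4a8, a bicarbonate transporter, and Rapgef6, an exchange factor for Rap GTPases (r = 0.998, 0.997 and 0.997). Dicer1 stood at 124, 121 and 147 CPM and then 171, 178 and 190 CPM. It rose as counted (0.46, edgeR adjusted p = 0.0073) and did not pass with the trend removed (0.15, adjusted p = 0.16), and its exons sum to 16750 bp. Slc4a8 rose as counted (0.53, edgeR adjusted p = 0.0046) and with the trend removed (0.27, adjusted p = 0.028). Rapgef6 was called on neither scale (edgeR adjusted p = 0.11 and 0.997). Of all genes compared, 5.77% had an r over 0.95 with Nfia and 3.95% with Nfic, against 0.0892% with Nfib and 0.0793% with Nfix. The nearest to Nfic were Farp1, Brpf3 and Eef2k, to Nfib Ago3, Spaca6 and Stxbp5l, and to Nfix Nus1, Hdac9 and Nol4. These names describe a likeness over 6 libraries only.

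Genes reported to act upstream of NFI factors, with them or against them formed the first list. Of its 8 genes 1 rose, none fell and 7 did not pass, with a median log2 fold change of 0.15. The gene that rose was Notch1, a receptor whose signalling promotes gliogenic competence, at 77.7, 89.5 and 113 CPM and then 117, 134 and 117 CPM (0.39, edgeR adjusted p = 0.04). It was called in 1 of 6 fits that leave out a library, the one without control replicate 3 (elsewhere edgeR adjusted p 0.096 to 0.25), and not with the trend removed (0.05, adjusted p = 0.81). Sox9, which induces Nfia in the cord and then works with its product, was at 70.0, 67.1 and 90.7 CPM and then 92.1, 117 and 90.4 CPM (0.40, edgeR adjusted p = 0.054). For Sox9 control replicate 3 lay within the range of the libraries labelled NFIAcKO.

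Genes reported as NFI targets in neural tissue went both ways. Of 19 listed genes 17 were tested (Gfap and Gabra6 were too low), and 7 fell, 2 rose and 8 did not pass. Their median log2 fold change was -0.36. Aldh1l1, a folate enzyme of astrocytes, stood at 67.9, 66.2 and 59.2 CPM and then 37.4, 34.4 and 38.4 CPM (-0.81, SE 0.09, edgeR adjusted p = 0.0008). Mmd2, which Sox9 and Nfia are reported to switch on together, was at 34.6, 37.8 and 29.0 CPM and then 19.5, 18.2 and 19.7 CPM (-0.82, SE 0.11, edgeR adjusted p = 0.0025). For both genes every library labelled NFIAcKO lay far below every library labelled control, and 16.1% of tested genes lay wholly below. Each was called as counted whichever single library was left out, and also without the trend. On leaving out a library without the trend, Aldh1l1 kept its call in all 6 fits, and Mmd2 lost it without control replicate 1 (adjusted p = 0.054) or NFIAcKO replicate 1 (0.057). Hepacam, an adhesion molecule of astrocytes, fell by 0.69 (edgeR adjusted p = 0.0088; 0.058 without control replicate 1). Fabp7, a fatty acid carrier of radial glia, fell by 0.57 (edgeR adjusted p = 0.0075), missed the threshold without NFIAcKO replicate 1 (0.052) and did not pass with the trend removed (-0.21, adjusted p = 0.072). Slc1a3, the glutamate transporter of radial glia, fell by 0.38 (edgeR adjusted p = 0.027), and the 2 that rose were Cdh2 (N-cadherin, 0.36, adjusted p = 0.021) and Ephb1, an ephrin receptor named because only 2 rose (0.33, adjusted p = 0.027). Slc1a3 and Ephb1 each kept their call in 1 of 6 fits that leave out a library, the one without control replicate 3, and Cdh2 in 2; without the others the adjusted p ran up to 0.11 for Slc1a3 and Ephb1 and 0.085 for Cdh2. The gene that came nearest among those not called was Insc, a regulator of spindle orientation (-0.55, adjusted p = 0.16). The falls not yet named were S100b and Hes5 (edgeR adjusted p = 0.029 and 0.044). S100b was low, at a mean of 1.28 CPM labelled control and 0.512 CPM labelled NFIAcKO. As counted it kept its call only without control replicate 3, and Hes5 only without control replicate 3 or NFIAcKO replicate 2. Without the trend 5 members fell and none rose. Of the 7 falls 4 were kept (Aldh1l1, Mmd2, Hepacam and Slc1a3), and Fabp7, S100b and Hes5 no longer passed. Apcdd1, a Wnt inhibitor, was added (-0.26, edgeR adjusted p = 0.048, against -0.0044 and 0.98 as counted). With a library left out as well, Hepacam passed only without control replicate 3 (elsewhere edgeR adjusted p 0.065 to 0.092). Slc1a3 then passed only without control replicate 2 or 3 (elsewhere 0.084 to 0.096). Apcdd1 passed only without control replicate 2 (elsewhere 0.063 to 0.17). Of the 7 that fell as counted, Hes5, Fabp7 and Slc1a3 are also on the progenitor marker list. The sum of that list was lower in the libraries labelled NFIAcKO without overlap (2521 to 2682 against 2788 to 2994 CPM). It holds these same genes, with Fabp7 at a mean of 981 and 660 CPM and Slc1a3 at 430 and 330 CPM, control first. The sum is therefore not a separate measure of progenitors, and Nes on the same list rose. Aldh1l1, S100b and Hepacam are also on the astrocyte marker list, whose sums overlapped (367 to 385 CPM labelled NFIAcKO and 341 to 383 CPM labelled control). Of its 5 tested markers these 3 fell and Slc1a2 rose, so the overlap of sums does not show level markers. The part of cell numbers in these falls was not tested.

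Factors that mark neurons by their time of birth were listed because Nfia, Nfib and Nfix belong to the late set. Of 12 such genes tested 7 rose, none fell and 5 did not pass, and their median log2 fold change was 0.59. Onecut2, a factor of early-born neurons, stood at 21.7, 23.5 and 27.2 CPM and then 43.1, 44.9 and 45.4 CPM (0.88, SE 0.10, edgeR adjusted p = 0.0008). Zfhx3, a zinc finger homeodomain factor, stood at 52.4, 55.6 and 62.0 CPM and then 101, 91.2 and 109 CPM (0.83, SE 0.09, edgeR adjusted p = 0.0008). Neither gene overlapped between the labels, as was so for 17.3% of tested genes that lay wholly higher. Onecut1 (0.90), Zfhx4 (0.72), Pou2f2 (0.63) and Zfhx2 (0.57) rose as well, at edgeR adjusted p values of 0.0065, 0.00098, 0.0043 and 0.0027, and these 4, Onecut2 and Zfhx3 were called as counted whichever library was left out. With the trend removed Zfhx3 was 0.44, Zfhx4 0.45, Onecut2 0.66, Pou2f2 0.45 and Onecut1 0.91. All 5 then lost their call when control replicate 1 or NFIAcKO replicate 1 was left out as well, and Zfhx3, Zfhx4, Pou2f2 and Onecut1 also without NFIAcKO replicate 2 or 3 or both (edgeR adjusted p 0.054 to 0.077 over these fits). The remaining gene that rose was Onecut3, named after its values were seen (0.61, edgeR adjusted p = 0.014). As counted it was called in 3 of 6 fits that leave out a library. With the trend removed Onecut3 was 0.50 (edgeR adjusted p = 0.024). With a library left out as well it passed only without control replicate 3 (elsewhere edgeR adjusted p 0.062 to 0.10). Of the listed factors of late-born neurons, a list that leaves out the NFI genes themselves, none passed as counted, with Neurod2 at 0.12 and Neurod6 at 0.09 (edgeR adjusted p = 0.31 and 0.57), both named after their values were seen, and Prox1 at 0.21 (adjusted p = 0.18). Without the trend 7 rose again, with Zfhx2 lost (0.16, adjusted p = 0.14) and Neurod6 gained (0.34, adjusted p = 0.046). The higher neuron marker sum and the lower progenitor marker sum of the libraries labelled NFIAcKO, given above, stand beside these counts. The progenitor sum includes Fabp7, Slc1a3 and Hes5 from the list of targets, which fell, and Nes, which rose. The part of either sum in these counts was not tested. All 3 lists were chosen with earlier results of these data known, and their counts stand against 7.86% of all tested genes higher and 6.08% lower as counted, and 3.83% and 3.88% without the trend. Exon length varied within the temporal list (median 8316.5 bp). The genes that rose as counted ran from Onecut1 and Onecut3 (4113 and 4776 bp) to Zfhx3 (20976 bp). Those not called included Neurod6, Neurod1 and Neurod2 (2150, 2729 and 3142 bp) as well as Prox1 and Tcf4 (8390 and 27382 bp). In the length classes of Nfic and Nfia 14.4% and 32.9% of genes rose as counted. Classes of shorter genes held fewer rises, down to 7 of 2188 in the shortest.

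**Figure D5:**
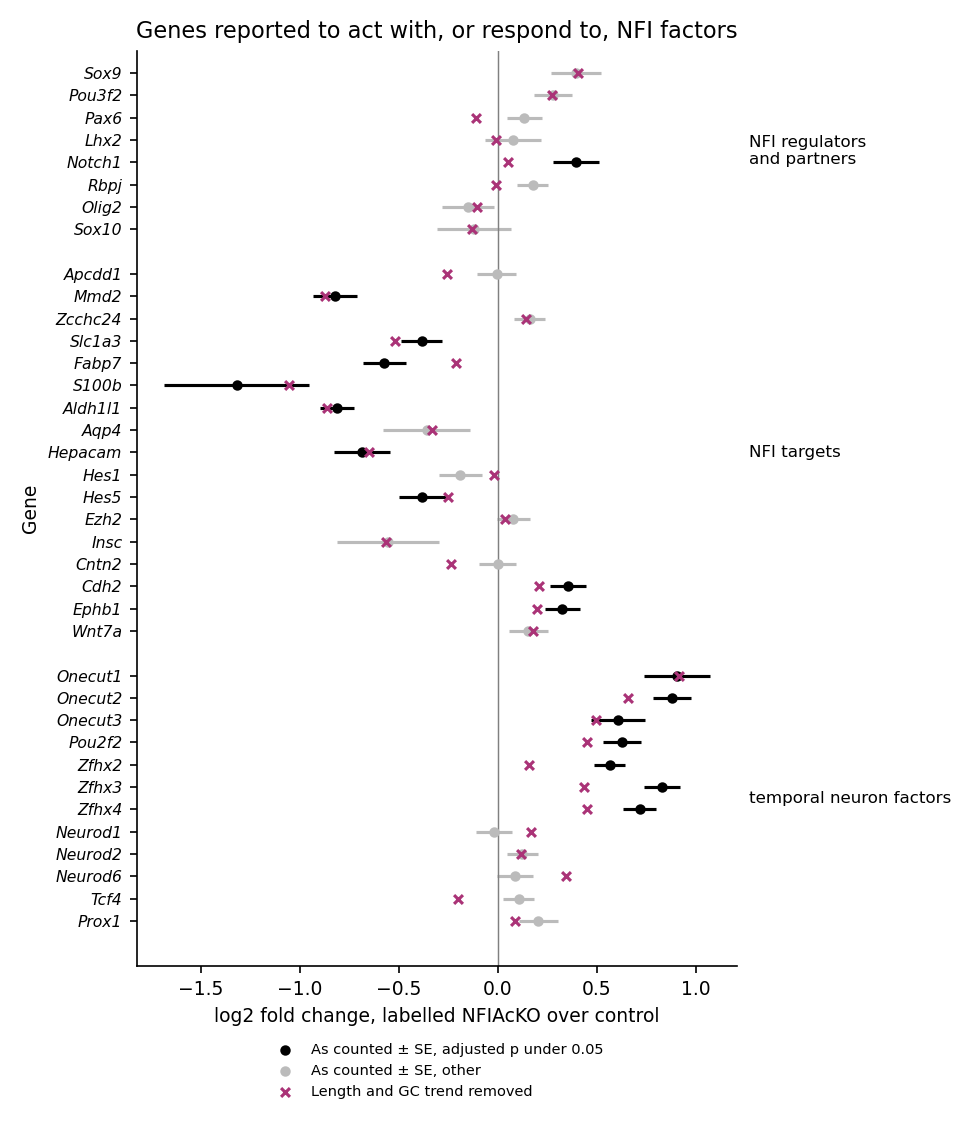
Log2 fold change (horizontal axis, libraries labelled NFIAcKO over control) of every tested gene of the 3 NFI-related lists; points with bars are the estimate as counted ± SE, black where the edgeR adjusted p is under 0.05 and grey otherwise, and crosses are the estimate with the length and GC trend removed. The Onecut and Zfhx genes and Pou2f2 lie to the right, and Mmd2, Aldh1l1, Hepacam, S100b, Fabp7, Hes5 and Slc1a3 to the left.

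Promoter sequence was looked at because Nfia and Nfic both rose as counted, Nfic not with the trend removed, and NFI proteins bind a known motif. RefSeq windows of 300 bases (GRCm38.p6, from 250 bases before to 50 after an annotated start) were at hand for Nfia, Nfic and Nfix. The single NFI site TTGGC, searched on both strands, was in 46.7% of all 32851 windows of that length, and the full palindrome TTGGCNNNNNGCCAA in 0.0365%. The window of Nfia, at chr4:97581693-97581992 on the plus strand and far upstream of the GENCODE start, and that of Nfic held neither. Of 4 windows of Nfix, 3 held TTGGC. The Nfix window at chr8:84772826-84773125 on the minus strand held it on each strand, as GCCAA before TTGGC, the reverse of their order in the palindrome. Both are shown 5′ to 3′, with TTGGC and its complement in capitals.
Nfia: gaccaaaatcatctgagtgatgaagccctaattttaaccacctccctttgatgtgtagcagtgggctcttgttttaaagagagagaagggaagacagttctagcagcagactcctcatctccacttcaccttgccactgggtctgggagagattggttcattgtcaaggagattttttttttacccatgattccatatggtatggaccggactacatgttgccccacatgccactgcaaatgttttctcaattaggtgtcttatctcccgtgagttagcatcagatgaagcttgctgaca
Nfix: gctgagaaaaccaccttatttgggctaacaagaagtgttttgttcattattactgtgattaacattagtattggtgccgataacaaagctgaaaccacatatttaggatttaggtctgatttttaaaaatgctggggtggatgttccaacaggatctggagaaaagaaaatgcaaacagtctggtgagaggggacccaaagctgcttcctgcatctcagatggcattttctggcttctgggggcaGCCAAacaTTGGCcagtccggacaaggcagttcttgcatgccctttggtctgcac
No match says only that these letters are absent from these windows.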

How the data were processed

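Gene expression was measured by RNA sequencing of 6 whole spinal cords at E13.5, 3 labelled control and 3 labelled NFIAcKO, with an Illumina kit for stranded mRNA, as the labels' protocols state. The authors deposited 1 file per library, with raw counts for each gene symbol. STAR 2.6.1a, HTSeq, DESeq2 and mm10 stand in the submitters' processing notes; their roles, the annotation release and the strand setting were not given in any source used here. The 5 summary lines of each file (16.9 to 19.4% of its total) stayed out of library sizes and tests. A count of 0 would allow up to 3 counts, or 0.0583 to 0.0691 CPM, for counting error only.

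All 6 libraries were fitted in edgeR 4.0.16 under R 4.3.3 (filterByExpr, TMM scaling, robust quasi-likelihood F test, Benjamini-Hochberg adjustment over 17711 genes, threshold 0.05). SE is the size of the log2 fold change divided by the root of F, and 95% intervals use the degrees of freedom of that test. Lengths, GC content and coordinates came from GENCODE M21 (GRCm38), which gave 17472 of the tested genes a length. The trend with length and GC was removed by natural splines of 5 degrees of freedom per library, fitted to genes whose mean log2 CPM was above 1, then used as offsets. Shares, ratios and correlations were tested by exact two-sided permutation in scipy 1.17.1, and coding sequences were aligned with mafft. Counts were also simulated for the same comparison over 17711 genes, with 200 changed. There edgeR found 58% of changes of 1.5-fold and 78% of those of 2-fold, and false calls made up 10.5%. The simulated counts held no trend with length and no link between replicates, so these rates need not hold for the data.

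Libraries with the same replicate number deviated together from their label's mean (correlations 0.35, 0.40 and 0.19 over 13122 genes, each above 0.1), so a fit with the number as a block is given as an alternative. Other alternatives were scaling, filter, DESeq2 1.42.0, limma-voom (limma 3.58.1), Xist or the number that file names share as a term, and each library left out. Named genes are the members, genes overlapping them, for each list up to 6 called members by smallest p and the uncalled member with the smallest p, and 3 genes nearest in pattern to each member. The members, lists and rule were chosen with earlier results of these data known. Of 14 marker lists, those not described in the text (astrocyte and oligodendrocyte lineages, pericytes, erythroid, cartilage, muscle and sensory ganglion) are given in the closing section, and 1 list is not reported here.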

Additional observations from a re-analysis of the deposited data

How the results depend on the processing

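Nfia was called under all 11 other settings that keep every library and in all 6 fits that leave out 1. Nfic was called in 7 of 11 and 1 of 6, and Nfib and Nfix in none. With the replicate number as a block (replicate block), Nfia was 0.76 (adjusted p = 0.0029) and Nfic 0.38 (0.019), and the pairing changed no call of a member. Nfic missed the threshold with upper quartile scaling (0.33), on library totals (0.32), with the length and GC trend removed (0.21) and with the trend removed together with the block (0.21). Nfib changed sign with the trend removed (-0.16), also with the block (-0.16), and over the 4 libraries of replicates 1 and 2 (-0.090), a choice made after seeing the data. Nfix changed sign with upper quartile scaling (-0.021), on library totals (-0.036), with the trend removed (-0.19), also with the block (-0.18), and over replicates 1 and 2 (-0.072). Leaving out each library, Nfia ranged from 0.67 to 0.90, Nfib from -0.037 to 0.12, Nfic from 0.26 to 0.50 and Nfix from -0.061 to 0.073. Doing so with the trend removed, also chosen after seeing the data, gave 0.54 to 0.76, -0.24 to -0.085, 0.15 to 0.28 and -0.31 to -0.11, and Nfia then missed the threshold without control replicate 1 or NFIAcKO replicates 1, 2 or 3 (adjusted p 0.058, 0.061, 0.056 and 0.063), while Nfib, Nfic and Nfix passed it without control replicate 3 only. Over all tested genes 1392 rose and 1076 fell. These counts were 901 and 1655 on library totals, 678 and 688 with the trend removed, 711 higher with the trend removed and the block, and 2888 and 2356 over replicates 1 and 2. Upper quartile scaling gave 1057 and 1434. Leaving out each library gave 282 to 2703 higher and 139 to 2466 lower, and with the trend removed 1 to 1866 and 1 to 1863, with all 4 of the highest counts from leaving out control replicate 3. By the longest transcript, TPM were 34.8 for Nfia in the libraries labelled NFIAcKO, 71.6 and 77.6 for Nfib in those labelled control and NFIAcKO, and 30.1 for Nfic in those labelled NFIAcKO. With the trend removed the correlation changed from 0.13 to -0.78 for Nfia and Nfib, from -0.16 to -0.77 for Nfia and Nfix, from -0.12 to -0.69 for Nfib and Nfic and from -0.26 to -0.71 for Nfic and Nfix. Counts of called list members moved by over 1.5 times in 25 cases and did not in 77. The cause of these changes was not tested. The lowest count of an NFI gene in a library was 2098, so counting error is small beside the spread between libraries, and 3 libraries a label set the precision.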

Other observations

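Skeletal muscle markers summed to 1.80 to 5.25 CPM in the libraries labelled control and 2.36 to 5.68 CPM in those labelled NFIAcKO, with Myod1 at a mean of 0.125 CPM. Sensory ganglion markers summed to 8.16 to 27.0 and 8.44 to 14.8 CPM, with none of 4 called. Cartilage markers summed to 89.6 to 140 and 132 to 136 CPM with none of 2 tested called, and erythroid markers to 1291 to 1467 and 1157 to 1604 CPM with none of 5 called. Pericyte markers summed to 234 to 302 and 233 to 244 CPM, where Pdgfrb and Abcc9 rose and Kcnj8 fell. In the oligodendrocyte lineage Olig1 fell and the other 4 markers were not called (99.8 to 121 and 80.9 to 115 CPM). In the astrocyte lineage Aldh1l1, S100b and Hepacam fell and Slc1a2 rose, while Gfap had a mean of 0.0897 CPM (341 to 383 and 367 to 385 CPM in sum).

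Replicate 3 of each label, which share a number in their file names that the other 4 libraries do not, gave the smallest step in Nfia, from 79.2 to 119 CPM, against 60.1 to 106 and 59.1 to 108 CPM for replicates 1 and 2. What that number stands for is not given in the sources used here.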
